A study of Mus musculus with 3 samples.

Results

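Listed peaks of Foxd3 around 5 genes of naive pluripotency were examined in mouse embryonic stem cells: Esrrb, Tfcp2l1, Tbx3, Prdm14 and Zfp42. Members were all peaks that overlapped 1 fixed stretch of mm9 per gene: chr12:87600000-87960000 for Esrrb, chr1:120425000-120680000 for Tfcp2l1, chr5:120020000-120235000 for Tbx3, chr1:13000000-13220000 for Prdm14 and chr8:44280000-44490000 for Zfp42. They were 25 peaks of 7975, with 10 of the 3406 peaks obtained with an anti-HA antibody and 15 of the 4569 obtained with an anti-Flag antibody. The study carried out chromatin immunoprecipitation and sequencing (ChIP-seq) on FH-Foxd3 cells, an LF2 embryonic stem cell line transduced with a pTrip lentivirus that adds Foxd3 carrying Flag and HA tags, and then selected with neomycin. The added protein was described as present at close to the endogenous level, and the sources used here do not say whether the line is 1 clone. All 3 samples, which are 1 HA precipitation, 1 Flag precipitation and 1 input of total genomic DNA, came from this line, grown without feeders in medium with 15% FBS and LIF. There was no treatment or genotype contrast, and the input was not analysed here.

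The naive state is the state of embryonic stem cells that resembles the epiblast before implantation, and a network of transcription factors holds it in place. Esrrb is an orphan nuclear receptor, Tfcp2l1 a factor of the CP2 family that acts downstream of LIF signalling, and Tbx3 a T-box factor. Prdm14 is a PR-domain protein needed for primordial germ cells and known to restrain Fgf signalling and DNA methylation in embryonic stem cells, and Zfp42 (Rex1) is a zinc finger protein widely used as a marker of the naive state. Foxd3 is a forkhead transcription factor of the early epiblast and the neural crest.

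Every one of the 5 windows held at least 1 site listed with both antibodies, but the windows were laid with earlier results known. Stretches of equal length were counted along all chromosomes without overlap. At least 1 such site was held by between 15.98% (Zfp42 length) and 24.97% (Esrrb length) of them. These shares are a description and not a test. Merging overlapping peaks gave 16 sites, of which 9 were in both lists, 1 was in the HA list only and 6 were in the Flag list only. Tbx3 had 3 sites of both antibodies, Esrrb and Prdm14 had 2 each, and Tfcp2l1 and Zfp42 had 1 each. Over both whole lists 45.5% of merged sites were of both antibodies. Of the 10 HA peaks 9 overlapped a Flag peak by at least 1 bp, or 90% (95% Clopper-Pearson interval 55.5 to 99.7), against 73.3% of all HA peaks. Of the 15 Flag peaks 9 overlapped an HA peak, or 60% (32.3 to 83.7), against 54.7% of all Flag peaks. Both intervals include the share of the whole list. They are wide and treat peaks of 1 library as independent, so they neither show nor exclude a difference. A peak missing from 1 list shows only that no peak was listed there, since the lists give no signal below their threshold.

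**Figure D1:**
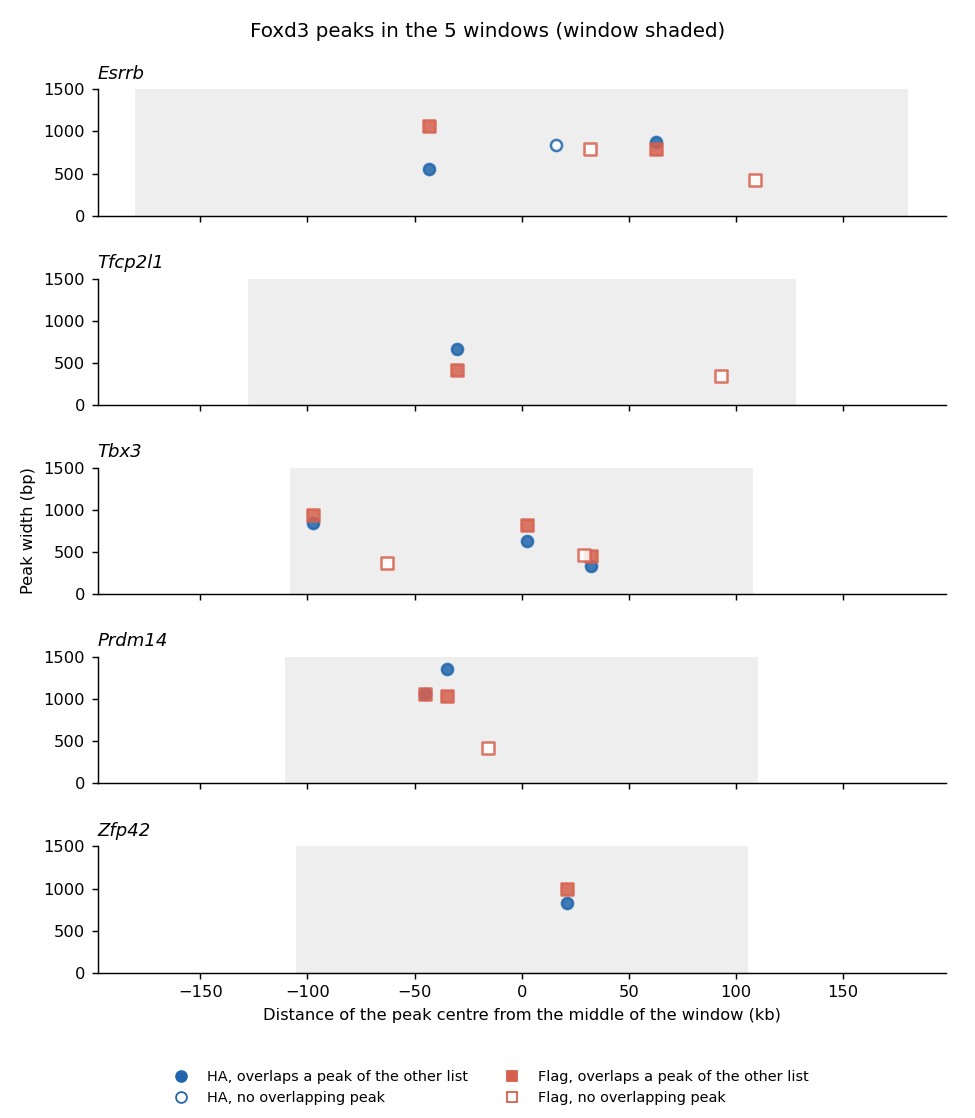
Each symbol is 1 peak, placed by the distance of its centre from the middle of its window (kb, horizontal) and by its width (bp, vertical). Circles are HA and squares Flag, filled where the other list has an overlapping peak. The 9 sites of both antibodies appear as a filled circle with a filled square at the same place, and the only open circle lies in the Esrrb window.

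Esrrb had the longest window, 360 kb, and the only member peak that was listed with HA alone. The first of its 5 sites was found with HA at chr12:87736265-87736817 (553 bp wide) and with Flag at chr12:87736016-87737083 (1068 bp wide). The HA peak lay wholly inside the Flag peak, and their centres were 8.5 bp apart. The next site, chr12:87795664-87796504, was an 841 bp peak of the HA list without a Flag counterpart. It was followed, 15.1 kb further on, by a 797 bp peak of the Flag list without an HA counterpart, chr12:87811601-87812397. These unpaired neighbours were both wide, broader than 85.3% of the HA list and 84.7% of the Flag list. The fourth site was again of both antibodies, an 871 bp HA peak at chr12:87842424-87843294 that contained a 792 bp Flag peak at chr12:87842469-87843260. The last, chr12:87888686-87889113, was in the Flag list only and measured 428 bp. In gene order Esrrb stands between Gpatch2l and Vash1.

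The Tfcp2l1 window had 2 sites. At chr1:120521952-120522616 an HA peak of 665 bp overlapped a Flag peak of 409 bp at chr1:120521949-120522357. The pair began within a few bases of each other and differed at its other end, so that the centre of the Flag peak lay 131 bp before that of the HA peak. The other site was a 338 bp peak at chr1:120645226-120645563, in the Flag list only and 122.6 kb away from the pair. It was the narrowest Flag peak among the members. Clasp1 precedes and Gli2 follows Tfcp2l1 in gene order.

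Tbx3 had the highest density of the 5 loci in both lists, with 3 HA and 5 Flag peaks in 215 kb. All 3 of its HA peaks were paired. The first pair, near the start of the window, was an HA peak of 841 bp at chr5:120029702-120030542 with a Flag peak of 946 bp at chr5:120029751-120030696. The second was an HA peak of 635 bp at chr5:120129748-120130382 inside a Flag peak of 817 bp at chr5:120129683-120130499. The third was the narrowest pair by its merged length, 458 bp, with an HA peak of 330 bp at chr5:120159806-120160135 inside a Flag peak at chr5:120159750-120160207. That HA peak was wider than only 7.46% of its list and was the narrowest HA member. Of the 2 Flag-only sites, a 471 bp peak at chr5:120156538-120157008 lay 2.74 kb before the third pair, the closest spacing in any of the windows. The other, of 376 bp, was at chr5:120064446-120064821. Med13l and Tbx5 are the protein-coding neighbours of Tbx3.

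Prdm14 carried the widest sites. At chr1:13064354-13065417 the HA peak was 1064 bp wide and its Flag partner, chr1:13064189-13065249, 1061 bp. The next pair, 9.15 kb on, consisted of an HA peak of 1356 bp at chr1:13074571-13075926 and a Flag peak of 1035 bp at chr1:13074706-13075740. The 1356 bp peak was wider than 98.2% of the HA list and was the widest of all 25 members. All 4 peaks were wider than 94.1% or more of their list. The third site, chr1:13094164-13094582, was a 419 bp peak found with Flag only. Slco5a1 and Ncoa2 are the protein-coding neighbours of Prdm14.

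Zfp42 had a single and isolated site, listed with both antibodies. The HA peak at chr8:44405872-44406699 (828 bp) lay inside the Flag peak at chr8:44405792-44406782 (991 bp), and the centres were 1.5 bp apart, the closest of the 9 pairs. The nearest other site of either list was 1649 kb away, against a median of 71.1 kb over all merged sites and 28.0 kb over the 16 sites of the windows. The widths were also ranked among peaks of chromosome 8 alone. There the HA peak was wider than 75.4% and the Flag peak wider than 86.7% of peaks, compared with 84.7% and 93.1% over the whole lists. Zfp42 stands between Triml2 and Adam26b in gene order.

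Gene order was taken from RefSeq on GRCm38.p6, a later build than that of the peaks, and was used for names only. Whether a peak lies in a promoter, exon, intron or between genes was therefore not determined, nor was the distance to a start site. Assigning a window to its gene follows the label given to the window.

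In every pair the HA and the Flag peak had more than 50% of their merged length in common. Centres of the 9 pairs were a median of 25.5 bp apart (range 1.5 to 166.5 bp). Over all 2474 pairs with 1 peak in each list the median was 50.5 bp. Centres were within 100 bp in 6 of the 9 pairs, or 66.7%, against 76.3% of all pairs. The first Tbx3 pair, at 101.5 bp, lay just beyond that limit, and 9 pairs are too few to tell these shares apart. The shorter peak lay entirely within the longer one in 6 of the 9, compared with 50.9% of all pairs. The shared part made up a median of 76.3% of the merged length (51.8 to 90.9%), against 76.4% over all pairs. The lowest value belonged to the first Esrrb pair and the highest to the other Esrrb pair. Flag peaks were the wider in 5 pairs and HA peaks in 4; over all pairs the Flag peak was the wider in 48.5%. The ratio of Flag to HA width ran from 0.62 at Tfcp2l1 to 1.93 at the first Esrrb site.

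**Figure D2:**
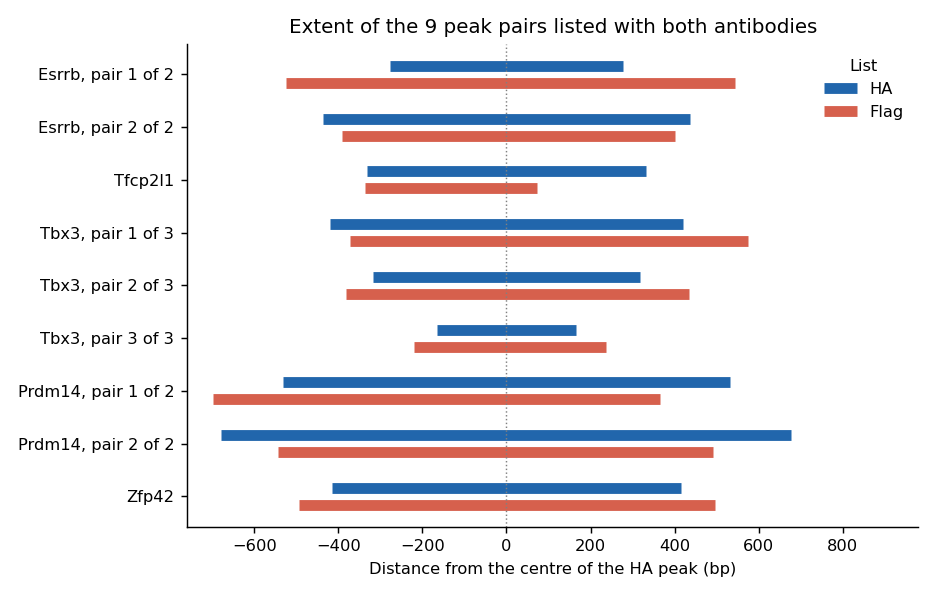
Bars show the extent of the HA peak (blue) and the Flag peak (red) of each of the 9 pairs, along the distance from the centre of the HA peak (bp). Offsets are visible for Tfcp2l1 (131 bp), the first Tbx3 pair (101.5 bp) and the first Prdm14 pair (166.5 bp), and the other 6 pairs are centred within 26 bp.

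Peak width was the only graded value in the files. HA members had a median width of 834.5 bp (order-statistic 95% interval 553 to 1064 bp, n = 10 peaks, range 330 to 1356 bp), compared with 547 bp over the HA list. Of these peaks 9 were above the list median, as were 49.9% of all HA peaks, and 6 were above its upper quartile of 714 bp, as were 25% of all. The peak below the median was the one of the third Tbx3 pair, and the first Esrrb peak exceeded it by a few bases only. Flag members had a median of 792 bp (interval 419 to 991 bp, n = 15 peaks, range 338 to 1068 bp), compared with 490 bp over the Flag list, which lies inside that interval. This median rested on the Esrrb peaks: without that locus it was 471 bp (n = 11 peaks), below the list median, and it was 631.5 bp without Prdm14 or without Zfp42. Above the Flag list median were 8 of the 15, against 50% of all Flag peaks, and the same 8 were above the upper quartile of 666 bp, against 25% of all. The 15 Flag members thus formed a narrow set of 7, from 338 to 471 bp, and a wide set of 8, from 792 to 1068 bp, with none between. This division was not set beforehand. In the whole Flag list 46.1% of peaks were narrower than 471 bp and 84.3% narrower than 792 bp, so many listed peaks lie in that gap.

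Most Flag members of the wide set were paired, and most of the narrow set were not. The division was drawn from these same peaks, and the paired shares of all Flag peaks at such widths are not given here. Paired Flag peaks were also the wider over the whole list, with a median of 548 bp against 407 bp for Flag-only peaks. The 9 paired Flag peaks had a median width of 946 bp, compared with 548 bp for all paired Flag peaks, and 7 of them exceeded that value. The paired peaks in the narrow set were those of Tfcp2l1 (409 bp) and the third Tbx3 pair (458 bp). The 6 Flag-only members had a median of 423.5 bp, close to the 407 bp of all Flag-only peaks. The exception among them was the 797 bp peak at Esrrb. Paired HA members had a median of 828 bp against 567 bp for all paired HA peaks, and 7 of 9 exceeded it. Members are peaks of 1 library each and not replicates, so the intervals cover counting error only and no test between groups of cells was possible.

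**Figure D3:**
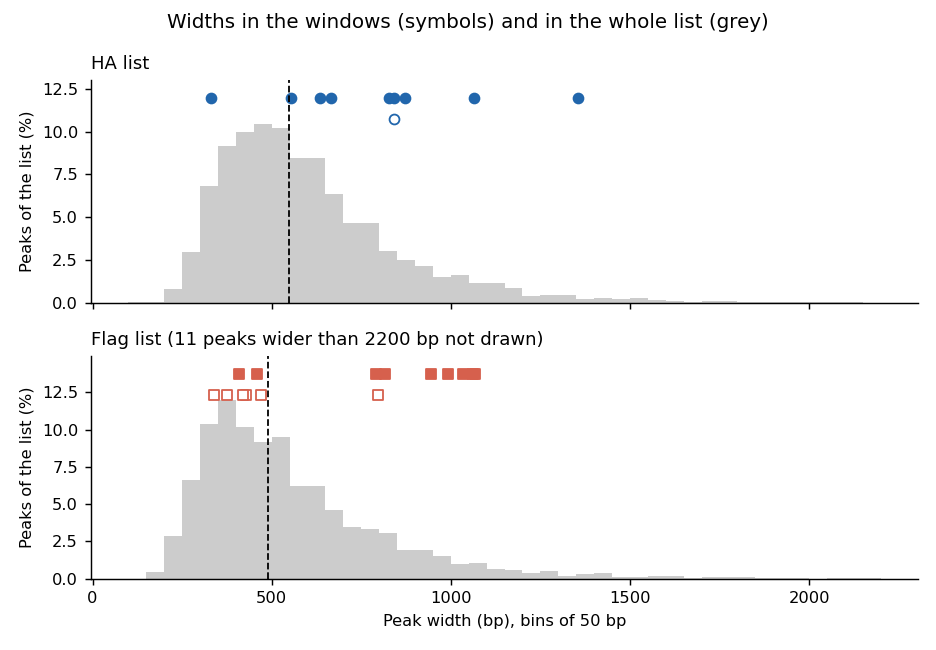
Grey bars give the percent of all peaks of each list by width (bins of 50 bp), the dashed line marks the list median, and symbols mark the members (filled, paired; open, in 1 list only). In the HA list 9 of 10 symbols lie right of the dashed line; in the Flag list the symbols leave a gap between 471 and 792 bp.

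Peaks were denser in the windows than in the lists as a whole. The windows cover 1.26 Mb with 7.94 peaks per Mb in the HA list (exact Poisson interval 3.81 to 14.6) and 11.9 per Mb in the Flag list (6.66 to 19.6). The whole lists averaged 1.30 and 1.75 per Mb. In the 2.5 Mb on either side of each window there were between 1.2 and 1.8 HA peaks per Mb and between 1.0 and 3.2 Flag peaks per Mb. The Flag densities around Tbx3 (3.2) and Esrrb (3.0) were above the list average but below those of the windows themselves. The windows were laid around these genes with earlier results known, and these densities are a description. The intervals treat peaks of 1 library as independent, so they may be too narrow where peaks lie in groups, and they are not a test.

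The 5 loci differed in how common their counts were among stretches of equal length, counted along all chromosomes without overlap. These stretches were not placed around genes, whereas the windows were, with earlier results known. The percentages are therefore a description and not a test. Tbx3 stood furthest out: 1.76% of 11787 such stretches had at least 3 HA peaks, and 0.365% had at least 5 Flag peaks. For Esrrb 3.85% of 7036 stretches had at least 3 HA peaks and 2.84% had at least 4 Flag peaks. For Prdm14 5.51% had at least 2 HA peaks and 2.73% at least 3 Flag peaks. The single HA peak of Tfcp2l1 was matched or exceeded in 23.9% of stretches and its 2 Flag peaks in 10.2%. At Zfp42 the figures were 20.5% for 1 HA peak and 25.7% for 1 Flag peak, so a count of this size was frequent.

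**Figure D4:**
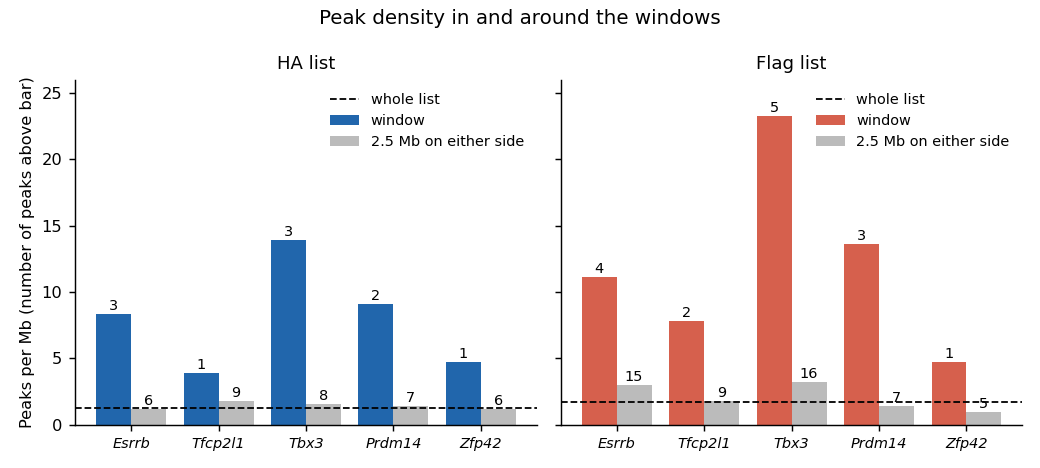
Coloured bars give peaks per Mb in each window, grey bars peaks per Mb in the 2.5 Mb on either side, and numbers the peaks counted; the dashed line is the whole list. Tbx3 has the tallest bar in both lists, 14.0 HA and 23.3 Flag peaks per Mb, and no grey bar exceeds 3.2.

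Close spacing was limited to a pair of places. Of the 16 sites 4 had another site less than 10 kb away, a distance chosen after the data were seen, in 1 group of 2 sites at Prdm14 and 1 at Tbx3. Over all merged sites 16% had such a neighbour. The distance planned beforehand was longer, between 10 and 25 kb. At that distance the same 4 sites of the windows had a neighbour, or 25%, against 18.4% of all merged sites. The Prdm14 group joined 2 sites of both antibodies, and the Tbx3 group joined 1 of both with 1 of Flag only. Outside the windows the nearest listed peak was between 45.6 kb (Flag, before Esrrb) and 2605 kb (HA and Flag, after Prdm14) from the window end. Nearest inside a window end was the first Tbx3 pair, whose HA peak began 9.70 kb from the start.

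The deposited lists are not sorted by position, and what orders their lines is not stated. Of the 10 HA members 8 stood in the first 50% of lines, where 50% of all peaks lie by construction. These 8 were between 13.9 and 34.8% of the way down the list. The other 2 were the paired peaks of Esrrb, at 75.2 and 95.9%. Of the 9 paired Flag members 8 stood between 15.9 and 52.4%, and the remaining one was again the first Esrrb site, at 98.5%. The ends of both spans were set by the members themselves, and the share of all peaks inside them is not given here. The first Esrrb site was thus among the last lines in both lists, although its Flag peak was the widest of the 15. In the last 10% of Flag lines 17 of 457 peaks were at least as wide, and 5 of those had an HA partner. In the last 10% of HA lines 108 of 341 peaks were at least as wide as its 553 bp HA peak, and 39 of those had a Flag partner. Of all peaks in these last lines 37.5% were paired in HA and 30.4% in Flag, against 73.3% and 54.7% over the whole lists. Of the 6 Flag-only members 3 stood in the last 10% of lines, those at Tfcp2l1 and Prdm14 and the 376 bp peak at Tbx3. Of all Flag-only peaks 15.3% did.

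**Figure D5:**
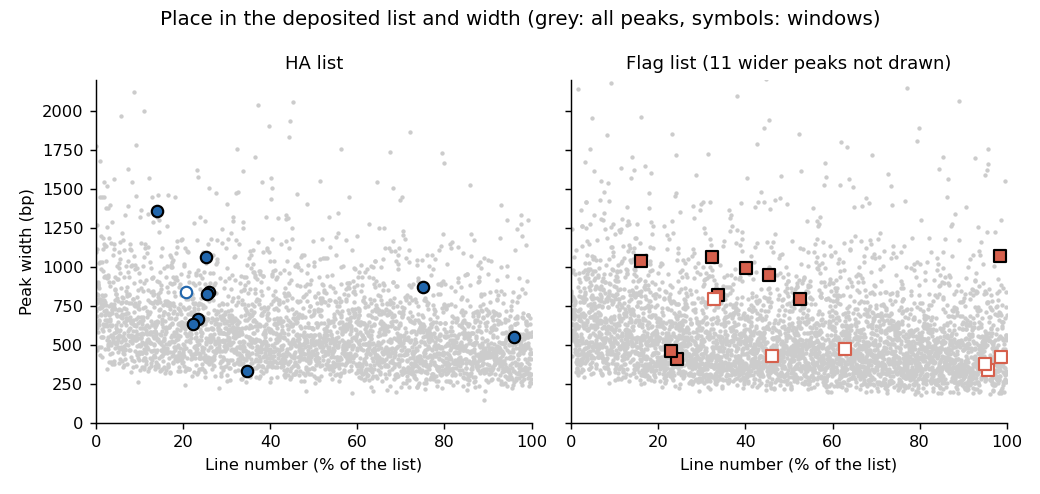
Each grey point is a peak of the list, by its line number as a percent of the list (horizontal) and its width in bp (vertical), and symbols mark the members (filled, paired; open, in 1 list only). The first Esrrb site stands at the right edge of both panels, at 95.9% in HA and 98.5% in Flag, with a width of 553 and 1068 bp.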

How the data were processed

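The authors deposited 1 peak list per antibody with 3 columns (chromosome, start, end) and no height, score or p-value. Positions are on mm9 according to the submitters' processing notes. For the aligner, the caller, its threshold and any use of the input, the entry is "not given in the sources used here", and read depth is unknown. Per the labels' protocols, fragments of 200 to 700 bp were selected and amplified for 18 cycles.

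Starts were converted to 1-based positions. Peaks sharing at least 1 bp were called paired, and the counts equalled those of bedtools 2.31.1. Genome length was taken as the sum of the largest peak ends, and equal-length stretches ran from the first to the last listed peak of each chromosome. Scripts ran in Python 3.11.15 with pandas 2.3.3, scipy 1.17.1, numpy 2.4.6 and matplotlib 3.10.9, and the overlap code was tested on simulated data. With 1 library per antibody no test was made. All peaks of the windows are named, with the nearest protein-coding genes. The members and the gene list were chosen with earlier results of these data known. Peak values, motifs and other pathway genes were not analysed, because they need peak scores or an mm9 genome and annotation; no sequence is shown for that reason.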

Additional observations from a re-analysis of the deposited data

How the results depend on the processing

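Of 69 values under alternatives to 27 results, 63 stayed within 1.5 times the reported count or inside the reported interval. The number of Flag peaks in the windows, 15, fell to 8 in the wider 50% of the list and to 9 in the first 50% of its lines, where fewer peaks remain by construction; the HA count stayed within 1.5 times. With the wider 50% of each list, 87.5% of 8 Flag members were paired, up from 60%, and 77.8% of 9 HA members, down from 90%. Paired Flag peaks were also wider over the whole list, with a median of 548 bp against 407 bp for Flag-only peaks. The paired shares of all peaks under this setting are not given here. Linking sites at the planned distance, which lay between 10 and 25 kb, gave 2 groups. Linking within 5 kb left 1 group, at Tbx3. Linking within 10 kb, chosen after the data were seen, gave 2, and within 25 kb 3. Shortening each window by 50 kb at both ends left 1 Flag peak at Tfcp2l1 and 3 at Tbx3, where the HA count fell from 3 to 2. Over the 5 windows 12 Flag and 9 HA peaks then remained. The shares of equal-length stretches were repeated with stretches shifted by 50% of their length, but not with other window ends. The paired shares stayed inside their intervals under the other overlap rules and window ends, and so did the median widths with each locus left out. The Flag median nevertheless ranged from 471 bp without Esrrb, below the 490 bp of the whole list, to 797 bp without Tfcp2l1, and the HA median from 746.5 to 841 bp. Alternatives set for peak scores and forkhead motifs were not run. No paired analysis was possible because there is only 1 library for each tag, and for the same reason no replicate could be left out. Depth is unknown, so no limit can be set on binding below the authors' threshold, and a peak in 1 list does not show that the other library lacked signal.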
